A study of Mus musculus with 32 samples.

Results

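Mouse olfactory neurons that carry an activity reporter were exposed to 1 of 2 odorants, and the comparison described here asks where the transcript response to eugenol differed from the response to muscone. It was drawn on the 16 arrays of GFP-positive cells among the 32 arrays of the series, by taking odorant minus vehicle within each experiment and setting the 4 eugenol differences against the 4 muscone differences, for every gene. All animals, vehicle controls included, were S100a5-tauGFP mice, and each group is adult olfactory mucosa that was dissociated and sorted by GFP fluorescence. Mice lived alone in an olfactometer with clean air for 26 h, and then received pulses of 10 s every 5 min for 14 h, of eugenol, of muscone or of vehicle. The 4 GFP-positive groups, with 4 arrays each, were eugenol and vehicle in the eugenol experiments, and muscone and vehicle in the muscone experiments. The odorants share no vehicle array and no experiment. Odorant and set of experiments therefore cannot be told apart in any difference between odorants. Nothing in the labels ties the arrays to separate animals, and p-values therefore measure only the spread between these samples. Sex, exact age and the number of mice behind an array are not stated.

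An olfactory sensory neuron expresses 1 allele of 1 odorant receptor gene, and binding of a ligand to that receptor raises cyclic AMP, opens a cation channel and fires the neuron. S100a5 is a calcium-binding protein gene whose expression in these neurons follows their activity, so its tauGFP allele labels neurons that have been active. When an odorant moves the neurons of one receptor across the sorting gate, transcripts of that receptor are expected to gain on one side of the gate and to lose on the other. Eugenol is the phenolic odorant of clove and muscone is a macrocyclic musk ketone. In sorted bulk cells, fewer cells of a type and less RNA per cell cannot be told apart.

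The signals are log2 intensities, and every difference below is on that log2 scale. The difference between odorants is the mean eugenol-minus-vehicle value less the mean muscone-minus-vehicle value, so a negative number means lower with eugenol than with muscone, each against its own vehicle. Its standard error (SE) and p come from limma, with the experiment as a block, and a gene is called at an adjusted p under 0.05 over 19938 genes. Array medians ran from 6.72 to 8.74, and the median vomeronasal receptor, a type used mainly by a different organ, lay at 4.75 (3.53 to 5.72 by array), which marks the dim end of the scale. The muscone experiments were dimmer: the mean over all genes on GFP-positive vehicle arrays was 7.23 to 8.72 (median 8.24) there. In the eugenol experiments it was 8.01 to 9.27 (median 8.79). Over genes, the differences were widest in eugenol experiment 1 (SD 0.36) and muscone experiment 3 (SD 0.39), and 0.16 to 0.27 in the other 6. The limma fit called 1 gene of 19938, which is 0.00502% of those tested, and 1368 (6.86%) had a raw p under 0.05, 1038 lower and 330 higher. The called gene was Olfr1434, an odorant receptor. Taken alone, the eugenol effect had 0 called genes (0%) and 1058 at a raw p under 0.05 (5.31%), and the muscone effect had 1 called gene (0.00502%), again Olfr1434, and 684 (3.43%).

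Olfr1434 lies in a cluster of receptor genes on chromosome 19, and its name in the older receptor nomenclature is MOR214-4. The 250 bases before its RefSeq start, at chr19:12279604-12279853 on the plus strand of GRCm38.p6, are shown because this receptor is the 1 gene called for the difference between odorants. Capitals mark TAATTA, a core that homeodomain proteins can bind, which reads the same on both strands.
Olfr1434: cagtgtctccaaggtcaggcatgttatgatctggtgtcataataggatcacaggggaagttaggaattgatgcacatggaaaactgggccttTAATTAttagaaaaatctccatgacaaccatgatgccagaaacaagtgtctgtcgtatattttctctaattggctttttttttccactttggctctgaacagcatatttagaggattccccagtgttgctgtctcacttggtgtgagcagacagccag
The motif occurs once, 158 bases before the start. It is present in 18.0% of 948 odorant receptor windows of this length and in 4.84% of 32851 windows of all genes, and the match is a description of the letters only.

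Olfr1434 signal rose with muscone and did not do so with eugenol. On the vehicle arrays of muscone experiments 1 to 4 its signal was 5.38, 4.13, 3.43 and 4.69, within the dim end of the scale, and on the muscone arrays it was 7.14, 6.91, 6.45 and 6.64. Every muscone array was above every vehicle array. The vehicle arrays of the eugenol experiments gave 5.36, 5.58, 4.35 and 4.29, and the eugenol arrays 5.06, 4.57, 3.72 and 4.15. These 2 groups overlap, and the eugenol array was the lower member of the pair in each of the 4 experiments. The muscone effect was +2.38 (SE 0.21, limma adjusted p = 0.0107) and the eugenol effect −0.52 (SE 0.21, limma adjusted p = 0.917). The difference between odorants was −2.90 (SE 0.30, limma adjusted p = 0.0417). The vehicle and eugenol signals lie in or near the range of the vomeronasal receptors, so no level can be read from them, and the difference is one of signals and gives no fold of the transcript. The 4 eugenol differences, from −1.01 to −0.14, did not overlap the 4 muscone differences, from 1.75 to 3.02. An exact two-sided permutation test over the 8 experiments gave p = 0.0286, the smallest that its 70 splits can give. Any gene whose experiments do not overlap gets this p, which held for 2.64% of all genes in the lower direction and 1.18% in the higher. Olfr1434 was picked from these same differences, so the p describes their separation and adds no support.

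The difference in signal lay between −3.11 and −2.37 in 19 alternatives, all computed from the same dim vehicle and eugenol values, and it was called in 7 of them. The call was lost with quantile normalization (limma adjusted p = 0.0594), with mature neuron genes as the centre (0.0522), and without any 1 of the experiments other than muscone experiment 1, where leaving out eugenol 1, 2, 3 or 4 gave 0.161, 0.145, 0.156 and 0.147 and leaving out muscone 2, 3 or 4 gave 0.233, 0.0828 and 0.0883. It was also lost with no replicate block (limma adjusted p = 0.999998) and without muscone experiments 2 and 3 together (0.187). Without eugenol experiment 1 and muscone experiment 3 together the limma adjusted p was 0.231.

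In GFP-negative cells, on 16 arrays that the comparison above did not use, Olfr1434 moved the other way. Its muscone differences were −0.89, −1.56, −2.48 and −0.73 and its eugenol differences −0.02, −1.37, −0.71 and 0.04. The ranges overlap. The difference between odorants there was 0.90 (SE 0.40, limma adjusted p = 0.939), with 0 genes called among 19938 (0%) and 1043 (5.23%) at a raw p under 0.05. Odorant receptors as a family were also lower with muscone in GFP-negative cells, with a median of −0.25. Of 1027 receptors 898 lay below 0 for that effect, against 9446 of 19938 genes. Mature neuron genes were lower there too, 15 of 15 below 0 for the muscone effect. Their median was −0.14, against 0.01 over all genes. For the eugenol effect in GFP-negative cells these genes were also 15 of 15 below 0, with a median of −0.14.

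**Figure D1:**
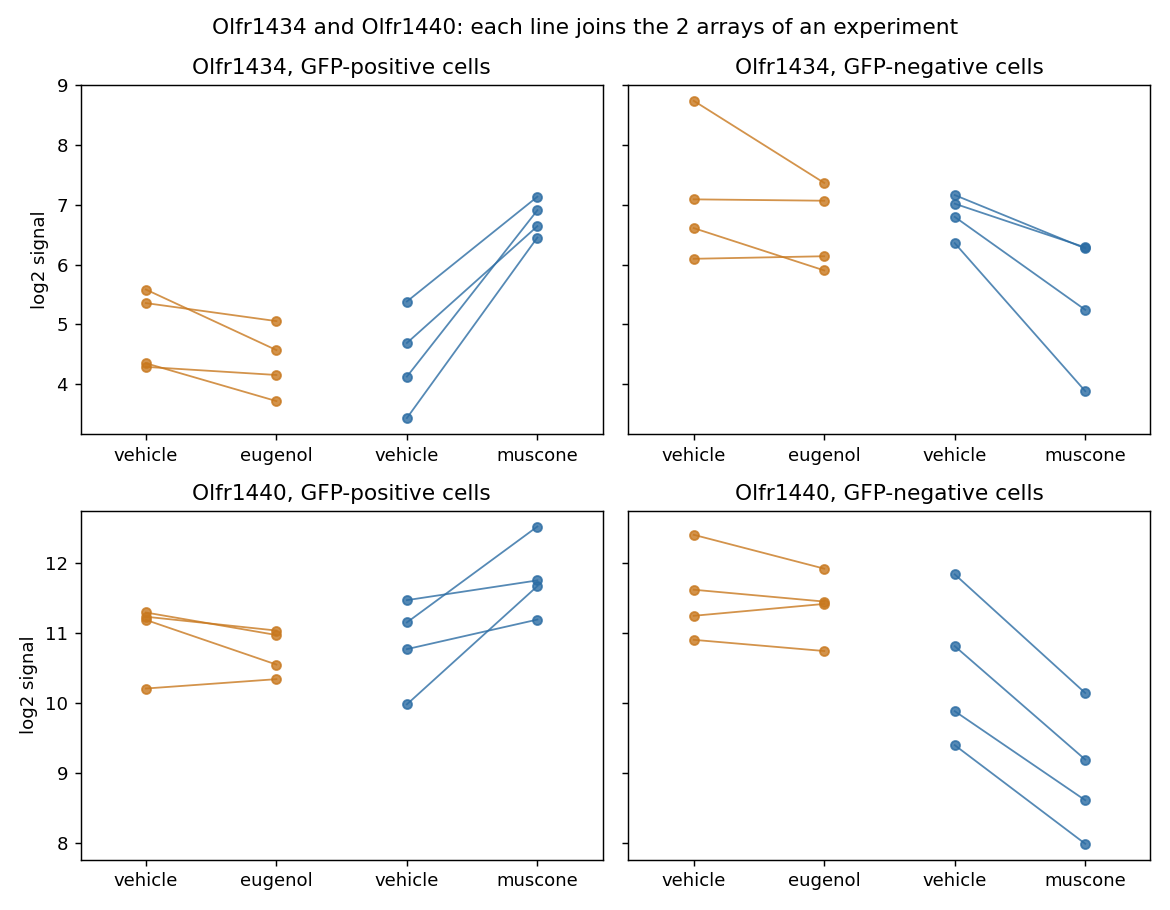
Log2 signal of Olfr1434 (upper panels) and Olfr1440 (lower panels) on every array, in GFP-positive cells (left) and GFP-negative cells (right); each line joins the vehicle and odorant arrays of 1 experiment, orange for eugenol and blue for muscone. In GFP-positive cells all 4 Olfr1434 muscone lines climb, by 1.75 to 3.02, while its 4 eugenol lines descend by 0.14 to 1.01; in GFP-negative cells all muscone lines of both genes descend.

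Olfr1434 belongs to a list of receptors linked to muscone. The list was partly recalled from the published study of these same samples and is not independent evidence. Of 7 names, 5 were measured, since Olfr1433 is now Olfr1434 and Olfr1437 is not analysed here. All 5 lay below 0 in the difference between odorants (52.8% of all genes did), with a median of −0.77 against −0.01 over all genes tested. At a raw p under 0.05, 3 were lower (5.21% of all genes), and 2 had experiments that did not overlap (2.64% of all genes). Without eugenol experiment 1 the list median was −0.44.

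Olfr1440, named MOR215-1 in the older nomenclature, came next. Its signal on the muscone arrays was 12.52, 11.75, 11.19 and 11.67 against 11.15, 11.47, 10.77 and 9.98 on their vehicle arrays. With eugenol it was 10.97, 11.04, 10.34 and 10.55 against 11.29, 11.23, 10.21 and 11.19. The muscone array was the higher of the pair in 4 of 4 experiments, although the array groups overlap, and the eugenol array was the lower in 3 of 4. The 4 muscone differences (0.28 to 1.69) all exceeded the 4 eugenol differences (−0.64 to 0.13), and the difference between odorants was −1.20 (SE 0.31, limma adjusted p = 0.718). In GFP-negative cells Olfr1440 fell with muscone, by 1.70, 1.28, 1.41 and 1.62 in experiments 1 to 4 (mean −1.50, SE 0.11, limma adjusted p = 0.000876), 1 of 2 genes called for that effect (0.01% of those tested). Its eugenol differences there were 0.17, −0.48, −0.16 and −0.17, and the difference between odorants was 1.34 (SE 0.15, limma adjusted p = 0.0743). The 2 sets of GFP-negative differences did not overlap, muscone being the lower (0.868% of all genes did so in that direction).

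The remaining muscone-linked receptors separated less in GFP-positive cells. Olfr235 (MOR214-3) had a difference between odorants of −0.45 (SE 0.25), and muscone experiment 4, at 1.10, stood apart from −0.05, 0.06 and 0.06 in experiments 1 to 3. Olfr1431 (MOR214-5) had −0.35 (SE 0.25), and −0.078 without muscone experiment 4, again the highest at 1.0. Both receptors sat lower in GFP-negative cells after muscone: Olfr235 fell by 1.11 (limma adjusted p = 0.0329), the other gene called there, and Olfr1431 was at −0.96, with differences between odorants of 0.98 and 0.72. These falls are beside a family median of −0.25 for the muscone effect in GFP-negative cells. For that effect 289 of 1027 odorant receptors were lower at a raw p under 0.05, against 825 of 19938 genes. In GFP-positive cells Olfr816, on chromosome 10, was higher with muscone in 4 of 4 experiments (0.67, 0.66, 0.50 and 0.67). Its eugenol differences spread from −1.12 to 0.65, and the difference between odorants was −0.77 (SE 0.30, limma adjusted p = 0.718).

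**Figure D2:**
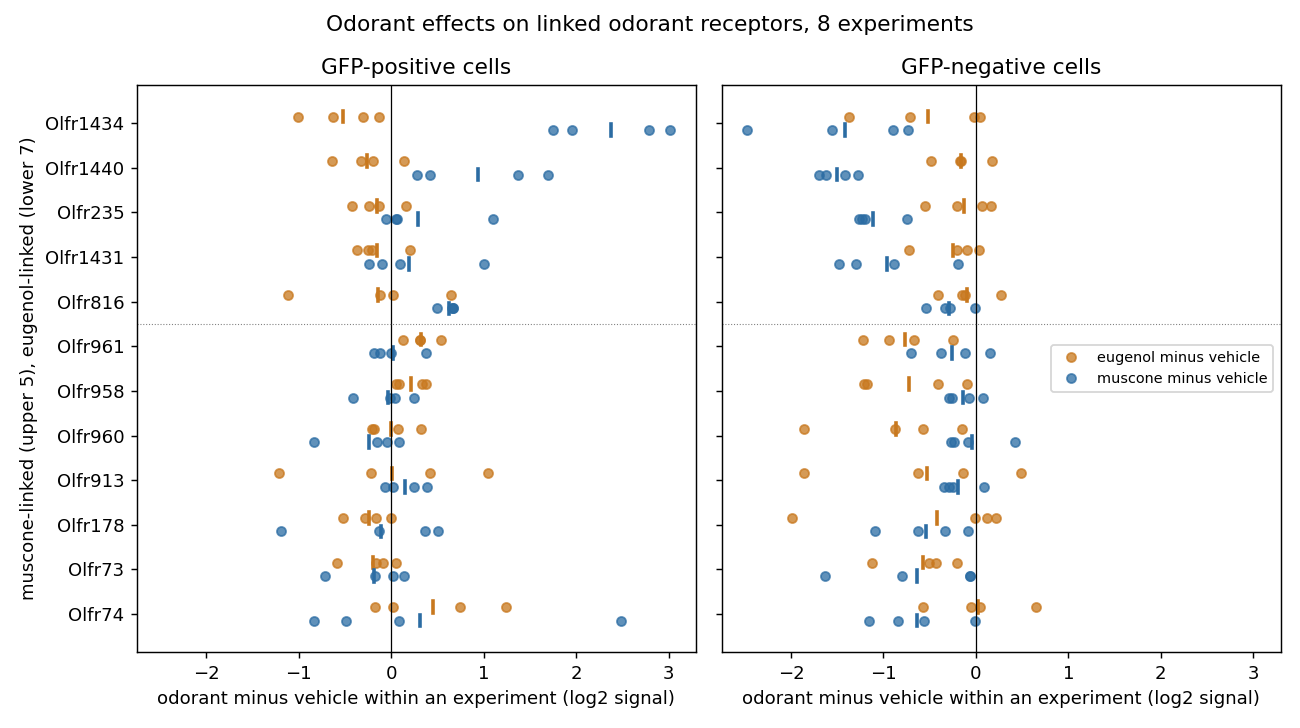
Odorant-minus-vehicle difference in log2 signal for the 5 measured muscone-linked receptors (above the dotted line) and the 7 eugenol-linked receptors (below it), in GFP-positive cells (left) and GFP-negative cells (right); dots are experiments and bars the mean of 4. Muscone dots of Olfr1434 lie far to the right in GFP-positive cells (mean 2.38), and the muscone dots of Olfr1440, Olfr235 and Olfr1431 lie below 0 in GFP-negative cells (means −1.50, −1.11 and −0.96).

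The 7 receptors linked to eugenol, a list with the same origin, had differences between −0.14 and 0.30. Of these, 4 lay above 0 and 3 below in the difference between odorants, 0 had a raw p under 0.05, and the median was 0.14, or −0.01 to 0.27 with 1 experiment left out, the lowest without muscone experiment 1 and the highest without eugenol experiment 2. Olfr961 was the highest: its signal was 10.64, 11.29, 10.35 and 10.13 with eugenol against 10.33, 11.16, 10.04 and 9.59 with vehicle, higher in 4 of 4 pairs, while muscone gave differences of 0.00, 0.38, −0.19 and −0.12. The eugenol effect on Olfr961 was 0.32 and the difference between odorants 0.30 (SE 0.15, limma adjusted p = 0.736), with overlapping experiments. Its neighbours on chromosome 9, Olfr958 and Olfr960, had differences of 0.24 (SE 0.15) and 0.24 (SE 0.21).

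Olfr913 on chromosome 9 and Olfr178 on chromosome 16 had −0.14 (SE 0.39) and −0.13 (SE 0.32). Olfr73 (also called mOR-EG) and Olfr74, 2 receptors of chromosome 2 known to respond to eugenol in cultured cells, had −0.01 (SE 0.20) and 0.14 (SE 0.64). The signs of these 4 depended on the processing or on 1 experiment. Olfr74 was 2.49 higher than vehicle in muscone experiment 3 and its difference was 0.87 without that experiment, and it was −0.12, −0.12 and −0.24 without eugenol experiment 2, muscone experiment 1 and muscone experiment 2. In GFP-negative cells the eugenol-linked list had a median difference between odorants of −0.34, with 3 lower at a raw p under 0.05 (4.05% of all genes there) and 1 higher (1.18%). The 3 were Olfr961, Olfr958 and Olfr960, at −0.51, −0.59 and −0.82, and the other was Olfr74 at 0.66 (limma adjusted p = 0.939 for each). Within GFP-negative cells that list had a median of −0.57 with eugenol and −0.26 with muscone, and the muscone-linked list one of −1.11 with muscone and −0.16 with eugenol. All 1027 odorant receptors had medians there of −0.14 with eugenol and −0.25 with muscone. The −0.26 and the −0.16 are thus close to the family values.

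Receptor genes that sit beside Olfr1434 were looked at by position alone, 12 on each side in gene order. Of these, 16 were measured, and 13 were not muscone-linked. Those 13 had differences between odorants from −0.59 to 0.08 (median −0.11), 11 below 0 (52.8% of all genes) and 3 lower at a raw p under 0.05 (5.21%), namely Olfr1426 (−0.59), Olfr1443 (−0.52) and Olfr1442 (−0.37). Of the 13, 1 had experiments that did not overlap in the lower direction (2.64%), Olfr1442. Olfr262, a gene of the same MOR214 subfamily 2 places away, had 0.07 (SE 0.15), and Olfr1436, also MOR214 and 2 places away on the other side, had −0.10 (SE 0.20). Neither neighbour approached the −2.90 of Olfr1434.

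Across all 1027 odorant receptors measured, the median difference between odorants was −0.07, from eugenol differences with a median of −0.10 and muscone differences with a median of −0.02. Below 0 were 616 receptors (60.0%, against 52.8% of all genes). At a raw p under 0.05, 96 were lower (9.35%, against 5.21%) and 17 higher (1.66%, against 1.66%), and 32 and 6 had experiments that did not overlap in the lower and higher direction (2.64% and 1.18% of all genes). The sign of the median depends on scaling: it was 0.08 with centring on the median odorant receptor, which moved the median of all genes from −0.01 to 0.14 and left 40 receptors lower at a raw p under 0.05, and it was −0.02 after quantile normalization. The 96 lower receptors became 47 with all 32 arrays in 1 fit and 1 with no replicate block. The median was −0.03, −0.12 and −0.13 without eugenol experiment 2, eugenol experiment 3 and muscone experiment 3. The receptors were also split by mean signal into 343 dim, 342 middle and 342 bright genes, whose medians were −0.14, −0.09 and −0.00, with 67.9%, 62.0% and 50% below 0. In GFP-negative cells the family median was 0.10, from eugenol differences with a median of −0.14 and muscone differences with a median of −0.25.

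Differences larger than 1 were one-sided. They were lower for 15 receptors and higher for 0, and lower for 147 and higher for 3 of all genes. Olfr338 had the second largest difference among the receptors described: its signal was 5.56, 6.11, 6.10 and 5.65 with eugenol against 7.07, 7.67, 6.33 and 6.39 with vehicle, and 7.65, 6.68, 3.81 and 6.38 with muscone against 6.31, 6.09, 3.40 and 6.19. Within pairs it was lower with eugenol in 4 of 4 experiments and higher with muscone in 4 of 4, and the difference was −1.64 (SE 0.33, limma adjusted p = 0.718). The pair of muscone experiment 3, 3.81 and 3.40, lies at the dim end of the scale, so no level can be read from it. Olfr1309 (−0.99, SE 0.19), Olfr1260 (−0.83, SE 0.17) and Olfr677 (−0.78, SE 0.15) also had experiments that did not overlap, with each eugenol pair below 0 and each muscone pair above 0. In the higher direction Olfr1053 (0.43, SE 0.12), at the dim end of the scale with vehicle means of 4.23 and 4.03, and Olfr527 (0.40, SE 0.11) were above 0 in 4 of 4 eugenol pairs and below 0 in 4 of 4 muscone pairs. None of these 6 receptors, which the rule took for their raw p, was called (limma adjusted p = 0.718 for each), and their GFP-negative differences were between −0.24 and 0.50.

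Trace amine-associated receptors, a separate family that detects amines, had a median of 0.06 over 13 genes. At a raw p under 0.05, 1 was lower (5.21% of all genes) and 1 higher (1.66% of all genes). Taar6 was at −0.66 (SE 0.25) and Taar5 at 0.36 (SE 0.16).

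**Figure D3:**
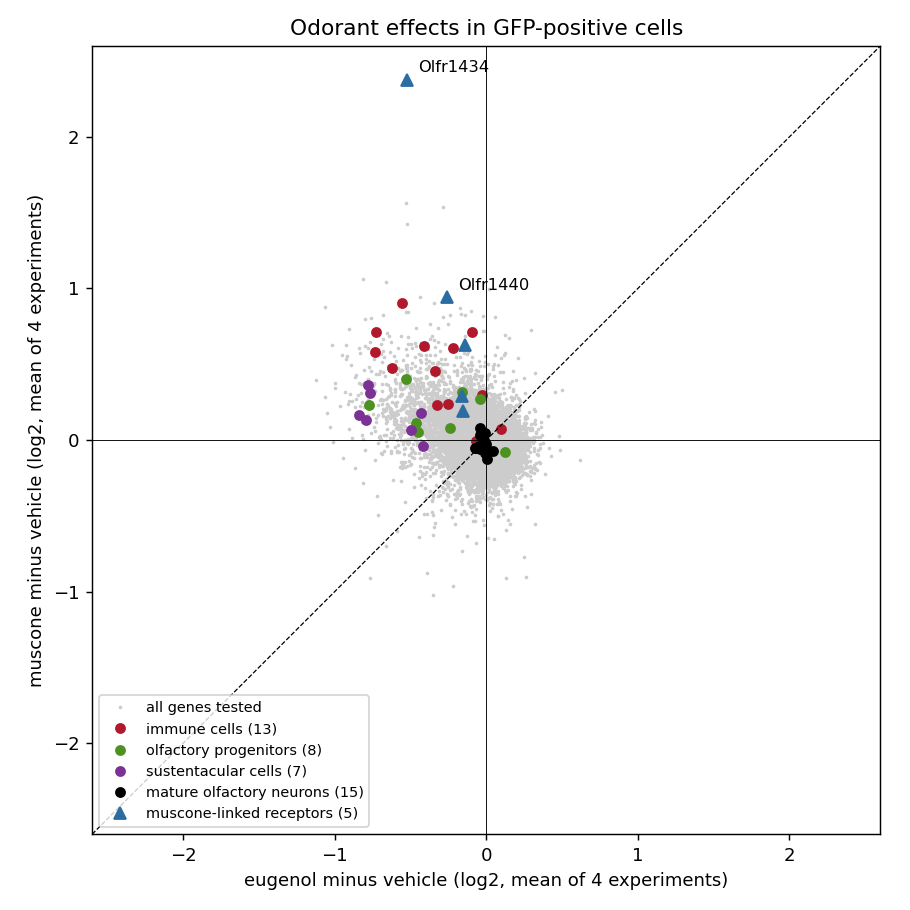
Muscone effect (y axis) against eugenol effect (x axis) for all 19938 genes in GFP-positive cells, each the mean odorant-minus-vehicle log2 difference of 4 experiments; coloured points are members of named lists, and genes on the dashed line would have equal effects. Olfr1434 stands alone at −0.52 and 2.38, immune, progenitor and sustentacular genes lie mostly above the line at the left, and mature neuron genes sit at the centre.

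Beyond the receptors, the lowest list medians were those of cells other than mature neurons. Among 13 measured immune genes 12 lay below 0 in the difference between odorants (52.8% of all genes), with a median of −0.80. At a raw p under 0.05, 7 were lower (5.21% of all genes) and 0 higher, and 5 had experiments that did not overlap (2.64%). None was called. The list was lower with eugenol (median −0.32) and higher with muscone (median 0.48). Its median by experiment was −0.26, −0.17, 0.10 and −0.76 for eugenol 1 to 4 and 0.22, 0.16, 1.22 and 0.29 for muscone 1 to 4, so every muscone experiment lay above every eugenol experiment, and muscone experiment 3 lay far above the others. Without muscone experiment 3 the list median was −0.48 with 5 such genes, and the 7 became 3 without eugenol experiment 1, and 4 without eugenol experiment 4 or with centring on the odorant receptors. With no replicate block the 7 became 2, where the 1368 of all genes at a raw p under 0.05 became 17.

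Ptprc, the CD45 phosphatase found on all leukocytes, had the smallest p of the list. With eugenol its signal was 7.68, 7.55, 6.81 and 7.58 against 8.04, 8.04, 7.53 and 8.50 with vehicle, and with muscone 7.49, 7.20, 8.24 and 7.61 against 7.02, 6.94, 7.35 and 7.32. It was lower in 4 of 4 eugenol pairs and higher in 4 of 4 muscone pairs, a difference of −1.10 (SE 0.17, limma adjusted p = 0.718). Cd74, the invariant chain of class II MHC, had −1.44 (SE 0.33), and Ngp, a neutrophil granule protein, −1.47 (SE 0.33), both without overlap of experiments. Lyz2, lysozyme of macrophages and neutrophils, had −1.32 (SE 0.49), with eugenol experiment 1 at −2.02 and muscone experiment 3 at 1.81.

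Other genes known from leukocytes were named for their small p, which fixed their direction. P2ry13, a purinergic receptor of macrophages and microglia, had −0.80 (SE 0.13), and Ms4a6c, of the MS4A membrane protein family, −0.89 (SE 0.18). Ms4a7, Ms4a4a and Ms4a6b, written into the list of guanylyl cyclase D neurons but also expressed by macrophages, had −0.97, −0.97 and −1.05. They were the 3 lower genes at a raw p under 0.05 among the 8 of that list (5.21% of all genes), whose median was −0.16. In GFP-negative cells all 8 genes of that list lay below 0 (62.9% of all genes), with a median of −0.38. There 4 of the 8 were lower at a raw p under 0.05 (4.05% of all genes).

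The immune list was far dimmer in GFP-positive than in GFP-negative cells. Its mean signal was 7.66 to 8.49 on the eugenol arrays against 7.61 to 8.93 with their vehicle, and 7.80 to 9.39 on the muscone arrays against 7.65 to 8.35 with theirs. Over the 16 GFP-negative arrays it was 10.85 to 12.41, and the difference between odorants had a median of −0.12 there. Whether a varying share of leukocytes in the gate takes part in these differences was not tested.

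Of 8 olfactory progenitor genes measured, which mark dividing and early neuronal cells, 7 lay below 0 (52.8% of all genes), 5 were lower at a raw p under 0.05 (5.21%), and 3 had experiments that did not overlap (2.64%), with a median of −0.49. The 5 became 3 without muscone experiment 3, with centring on the odorant receptors, with quantile normalization or with all 32 arrays in 1 fit. With no replicate block they became 0. The eugenol effect had a median of −0.35 and the muscone effect of 0.17. Mki67, the Ki-67 protein of cycling cells, had a signal of 7.79, 8.0, 7.15 and 7.42 with eugenol against 8.34, 8.33, 7.55 and 7.94 with vehicle, and of 7.55, 6.78, 6.25 and 7.85 with muscone against 7.53, 6.65, 6.17 and 7.88. Each eugenol pair was lower by at least 0.33, and no muscone pair moved by more than 0.13. The difference was −0.50 (SE 0.10, limma adjusted p = 0.718).

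Top2a, the topoisomerase of dividing cells, followed Mki67 at −0.58 (SE 0.12), with eugenol pairs from −0.52 to −0.40. Neurod1, a transcription factor of immediate neuronal precursors, had −0.93 (SE 0.21), and Sox2, found in basal stem cells and sustentacular cells, −1.01 (SE 0.40) with eugenol experiment 1 at −2.05. Median by experiment for the list was −0.45, −0.20, −0.27 and −0.23 with eugenol and 0.04, 0.06, 0.53 and 0.04 with muscone, which do not overlap. In GFP-negative cells, where the list was brighter (8.44 to 10.34 against 6.11 to 8.22 in GFP-positive cells), its median difference was −0.00. Of the immature neuron genes 10 of 12 lay below 0 (52.8% of all genes), with a median of −0.15, and the experiments overlapped, at −0.17 to −0.07 with eugenol and −0.11 to 0.35 with muscone. At a raw p under 0.05, 1 was lower (5.21% of all genes), the deacetylase Hdac2 (−0.33, SE 0.11). Nhlh1, a basic helix-loop-helix factor of immature neurons, had −0.57 (SE 0.26). The same list lay above 0 for 12 of 12 genes in GFP-negative cells (7395 of all 19938 genes did), with a median of 0.23.

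Sustentacular genes gave the lowest median of the lists, and it rested largely on 1 experiment. All 7 sustentacular genes lay below 0 (52.8% of all genes), with a median of −0.92, and 2 were lower at a raw p under 0.05 (5.21%). By experiment the list median was −2.16, −0.08, −0.41 and −0.18 with eugenol and −0.02, 0.15, 0.69 and −0.26 with muscone. Eugenol experiment 1 stood apart, and without it the median was −0.29. With muscone experiment 3 left out as well it was −0.10. The 2 genes became 0 without muscone experiment 3 alone, and also with no replicate block. Sult1c1, a sulfotransferase, had 12.38 with vehicle and 10.22 with eugenol in experiment 1, while the other eugenol pairs were 9.83 and 9.51, 10.09 and 9.68, and 10.77 and 10.55. Its vehicle signal in experiment 1 was thus the high value, and the difference between odorants was −1.14 (SE 0.42). Ermn, an actin-binding protein, had −1.08 (SE 0.48), and Cyp1a2, a cytochrome P450, −0.92 (SE 0.56), with eugenol experiment 1 at −2.27 and −2.68.

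Enzymes of odorant and xenobiotic metabolism, which share Sult1c1 and Cyp1a2 with the sustentacular list, lay below 0 for 15 of 15 genes (52.8% of all genes). Their median was −0.87, with eugenol experiment 1 at −2.14 against −0.26 to 0.00 in the other eugenol experiments. Cyp2j6, another P450, had −1.15 (SE 0.44) and was −2.27 in that experiment. Bowman's gland genes were below 0 for 7 of 7 (52.8% of all genes), with a median of −0.54, yet the experiments overlapped widely, from −1.17 to 0.40 with eugenol and from −0.39 to 0.70 with muscone. Bpifb9b, a secreted protein of the glands, had −1.02 (SE 0.37). Krt5, the keratin of horizontal basal cells, had −0.83 (SE 0.35), the 1 lower gene at a raw p under 0.05 among 5 of its list (5.21% of all genes). The mean sustentacular signal ran from 9.47 to 12.18 over the GFP-positive arrays and from 9.20 to 11.08 over the GFP-negative arrays. The part of supporting-cell RNA in the other differences of eugenol experiment 1 was not tested.

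**Figure D4:**
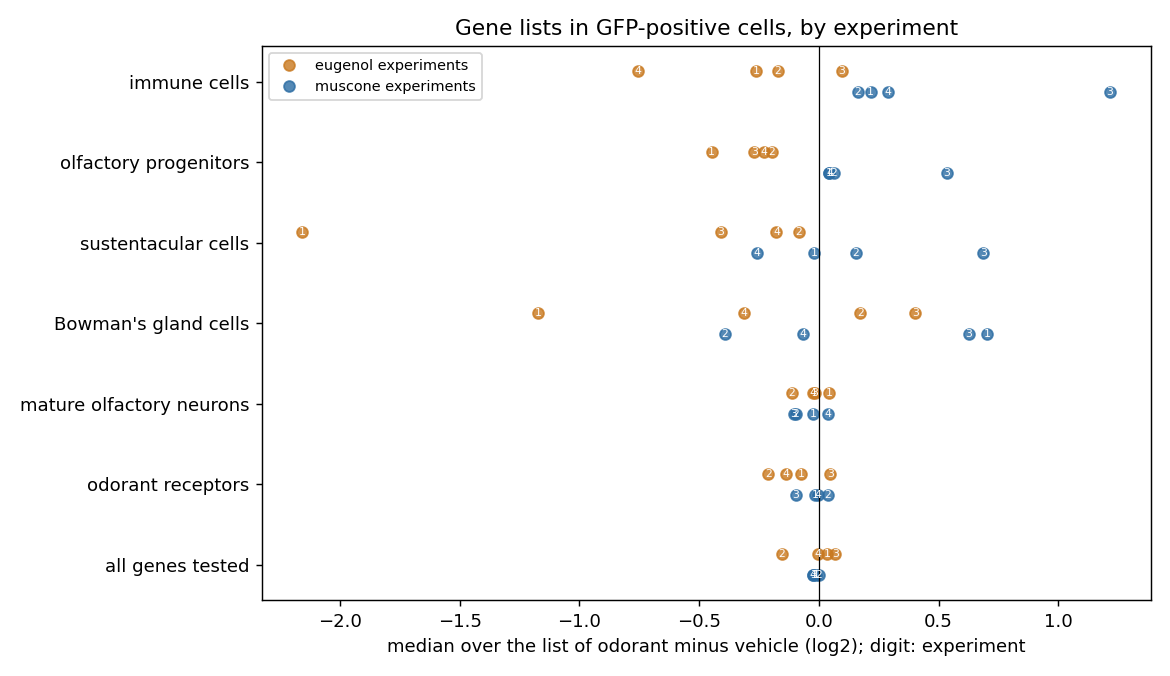
Median odorant-minus-vehicle log2 difference over each gene list in GFP-positive cells, 1 point per experiment with its number, orange for eugenol and blue for muscone. Immune and progenitor medians do not overlap between the odorants, sustentacular genes are set apart by eugenol experiment 1 (−2.16), and mature neuron genes stay between −0.11 and 0.04.

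Genes of the mature neurons themselves, which the gate selects, lay near 0. Over 15 mature neuron genes the median difference was 0.01, from −0.13 to 0.13, with 0 at a raw p under 0.05. Omp, the olfactory marker protein, had eugenol differences of 0.04, −0.07, 0.14 and −0.03 and muscone differences of −0.07, −0.13, −0.10 and 0.01, which overlap, and a difference between odorants of 0.09 (SE 0.10). The 16 genes of odorant signal transduction had a median of 0.00 and 0 at a raw p under 0.05. The members with the smallest p were Grk3, a kinase that desensitizes receptors (−0.41, SE 0.20), and Gng13, a G protein gamma subunit (0.13, SE 0.12).

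Genes that follow the activity of olfactory neurons were held in 2 lists. Of 7 genes raised by activity, 6 lay below 0 (52.8% of all genes), but the median was −0.03 and 0 had a raw p under 0.05. S100a5, the reporter's own gene, was 11.79, 7.10, 6.22 and 7.21 with eugenol against 12.16, 8.08, 6.33 and 7.16 with vehicle, and 6.66, 6.20, 5.28 and 7.07 with muscone against 6.92, 5.92, 4.67 and 7.0. Both arrays of eugenol experiment 1 were far brighter than the rest, and the odorant and vehicle arrays overlap for each odorant. The difference was −0.52 (SE 0.24, limma adjusted p = 0.722). Pcdh10, an adhesion molecule of axon sorting, had −0.29 (SE 0.26), and −0.014 without eugenol experiment 2. The 3 genes lowered by activity had a median of −0.09, and 1 was lower at a raw p under 0.05 (5.21% of all genes), the semaphorin receptor Plxnc1 (−0.74, SE 0.23).

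Immediate early genes, which are induced within minutes to hours of firing, had a median of −0.12 over 20 genes, 15 below 0 (52.8% of all genes). That median turned to 0.03 with centring on the odorant receptors, where 0 were lower at a raw p under 0.05, and was −0.02 without muscone experiment 3. At a raw p under 0.05, 3 were lower (5.21% of all genes): Btg2, an antiproliferative factor (−0.58, SE 0.21), Nr4a1, a nuclear receptor (−0.52, SE 0.19), and Fos (−0.28, SE 0.11). The separation of Btg2 and Nr4a1 leaned on muscone experiment 3, at 0.81 and 0.87, and Fos was lower with eugenol in 4 of 4 pairs (−0.49 to −0.15). The 3 became 1 without muscone experiment 3 or eugenol experiment 4, and 5 without eugenol experiment 3. In GFP-negative cells the same list had a median of −0.32, with 8 of 20 lower at a raw p under 0.05 (4.05% of all genes there).

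Stress and death lists had medians between −0.14 and −0.04. The unfolded protein response list had a median of −0.14 over 16 genes, 11 below 0 (52.8% of all genes). At a raw p under 0.05, 1 was lower (6.25%, near the 5.21% of all genes), and 3 had experiments that did not overlap in the lower direction (2.64% of all genes). Dnajc3, a co-chaperone of the endoplasmic reticulum, was at −0.37 (SE 0.11) and Hspa5, the chaperone BiP, at −0.22 (SE 0.10). The oxidative stress list had a median of −0.13, with 9 of 12 below 0 (52.8% of all genes) and 1 lower at a raw p under 0.05 (5.21% of all genes). Among 11 apoptosis regulators the median was −0.04, with 7 below 0 (52.8% of all genes). At a raw p under 0.05 there was 1 gene in each direction (5.21% of all genes lower, 1.66% higher). Casp8, an initiator caspase, had −1.41 (SE 0.40), with eugenol experiment 1 at −1.81 and muscone experiment 3 at 1.49. Bbc3, the PUMA protein, had 0.36 (SE 0.11), above 0 in 4 of 4 eugenol pairs and below 0 in 4 of 4 muscone pairs. Microvillous cell genes had a median of −0.25 over 8 genes with 0 at a raw p under 0.05, Trpm5, their cation channel, being at −0.32 (SE 0.16).

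**Figure D5:**
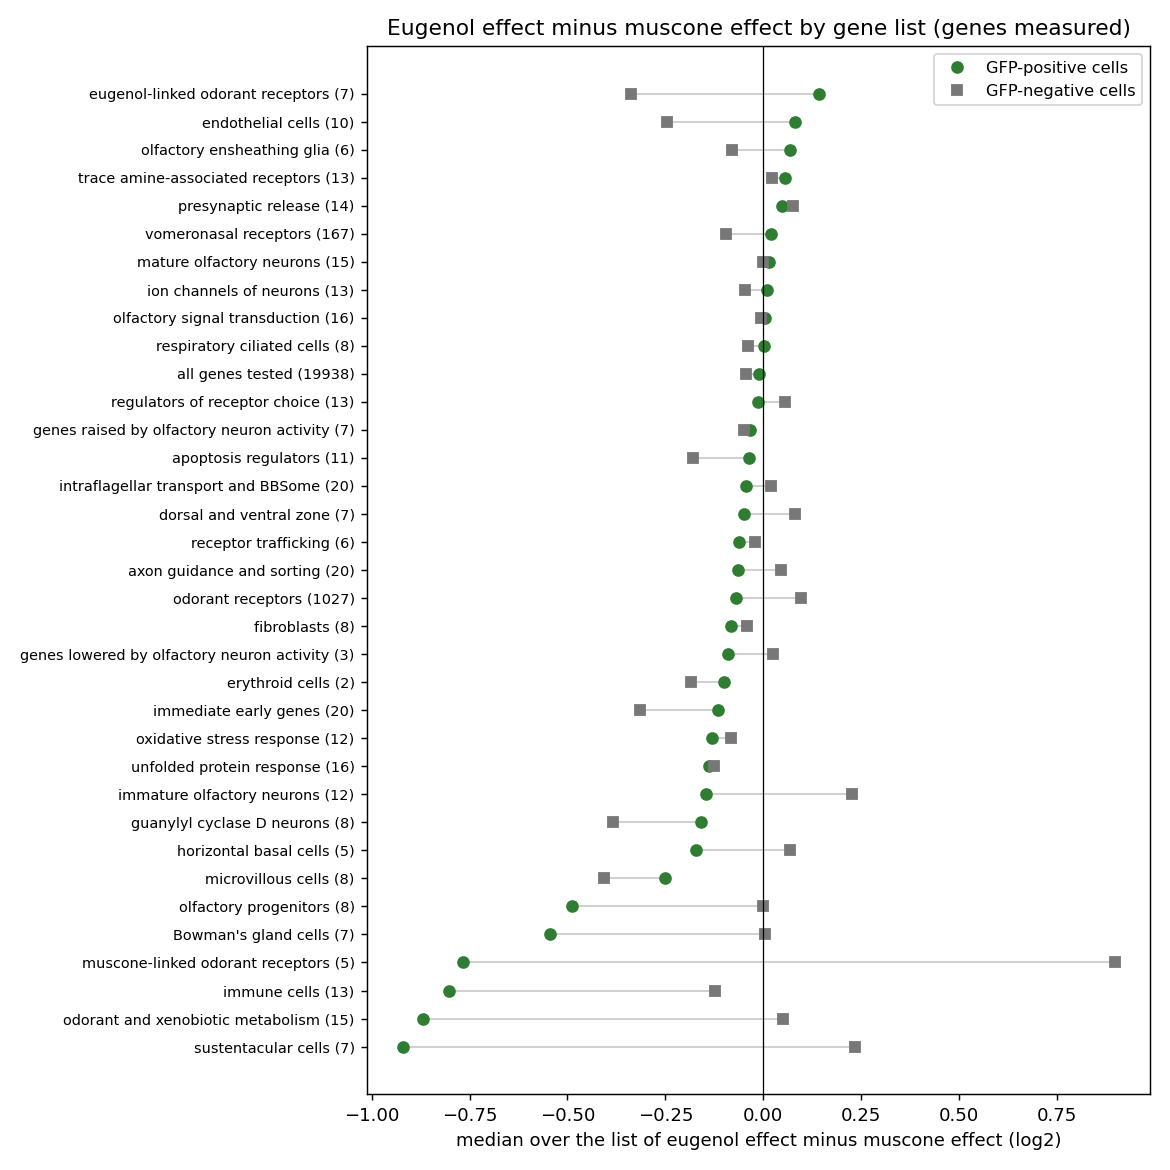
Median over each gene list of the difference between odorants (eugenol effect minus muscone effect, log2) in GFP-positive cells (circles) and GFP-negative cells (squares), with the number of genes measured. Supporting-cell, immune and progenitor lists lie at −0.49 or lower in GFP-positive cells and between −0.12 and 0.23 in GFP-negative cells, and the muscone-linked receptors turn from −0.77 to 0.90.

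The genes with the smallest p in the higher direction were few and scattered in function. Gypc, the membrane protein glycophorin C, was 7.29, 8.07, 6.33 and 7.60 with eugenol against 7.02, 7.82, 6.13 and 7.55 with vehicle, and 6.78, 6.36, 5.23 and 7.0 with muscone against 7.27, 6.60, 5.53 and 7.45. It was higher in 4 of 4 eugenol pairs and lower in 4 of 4 muscone pairs, a difference of 0.57 (SE 0.11, limma adjusted p = 0.718). Ripk3, the kinase of necroptosis, had 0.58 (SE 0.12), from muscone pairs between −0.73 and −0.40 and eugenol pairs between −0.10 and 0.19. Snord16a and Snora20, small nucleolar RNAs, had 0.71 (SE 0.16) and 1.16 (SE 0.27), Mir212, a microRNA locus induced by neuronal activity, 0.47 (SE 0.11), and Nos3, the endothelial nitric oxide synthase, 0.43 (SE 0.10). The 10 endothelial genes had a median of 0.08 with 0 at a raw p under 0.05. In the lower direction Mmp13, a collagenase, had −1.15 (SE 0.23), lower in 4 of 4 eugenol pairs (−1.35 to −0.15). None of these genes was called (limma adjusted p = 0.718 for each).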

How the data were processed

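The values are the deposited log2 signals of 35556 Affymetrix probe sets, made by the authors with Affymetrix Expression Console, per the submitters' processing notes. No source used here gives its version, or how background was corrected and probes were normalized and summarised. Array medians differ, so the arrays were not brought to 1 median. Biotinylated cRNA from total RNA of sorted cells was hybridised, per the labels' protocols. With 4 arrays per group, precision is limited.

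Genes were named through the platform annotation: 21789 probe sets have 1 gene symbol, 1621 several and 12146 none, and 21698 of the first matched RefSeq (GRCm38.p6) by gene ID. Probe sets with 1 symbol were used, the brightest over 32 arrays standing for a gene with several, which gave 19938 genes.

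limma 3.58.1 in R 4.3.3 was fitted to the 16 GFP-positive arrays with the experiment as a fixed block of 8 levels and an effect for each odorant (10 coefficients, 6 residual degrees of freedom, prior 3.92), and likewise to the 16 GFP-negative arrays. Tests were two-sided with Benjamini-Hochberg adjustment over all genes, and the procedure was tested on simulated data. Every adjusted p is limma's. Raw p under 0.05 is a descriptive count. The block is the number that the arrays of an experiment share in their titles. Deviations from the group means correlated within the 8 pairs at 0.448 to 0.888 (median 0.661), and between experiments of 1 odorant with a median of −0.204.

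Named genes were called genes, the 12 with the smallest p per direction, the 10 such receptors per direction, S100a5, Omp, the linked receptors, and up to 4 members of each gene list by p; 62 of these were followed through the alternatives, and the neighbours of Olfr1434 were chosen by position. The comparison, lists and rule were chosen with earlier results of these data known, so no list is independent support. Alternatives were other centrings, quantile normalization, no block, array weights, an intensity trend, a filter on dim genes, separate probe sets, all 32 arrays in 1 fit, and fewer experiments.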

Additional observations from a re-analysis of the deposited data

Results flagged for a closer look

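The difference between odorants was itself tested for each gene, and the 1 gene called was Olfr1434 (−2.90, limma adjusted p = 0.0417), raised with muscone and not with eugenol.

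For 62 genes the 4 differences of each odorant were searched for a value set apart from the other 3 by more than Dixon's critical value, and 12 of 124 groups had one. The share expected by chance, 0.05, holds for independent and unselected groups. These genes were taken partly by their p in the same differences and share the same experiments, so the 12 cannot be weighed against it. With eugenol, experiment 1 stood apart for Sult1c1 (−2.16), Casp8 (−1.81), Ms4a4a (−0.90) and Olfr1260 (−0.061, nearer 0 than the others), experiment 3 for Neurod1 (−1.19), and experiment 4 for Olfr677 (−0.62). With muscone, experiment 3 stood apart for Ms4a4a (1.72), Ms4a7 (1.53), Sult1c1 (1.15) and Olfr816 (0.50, below the others), experiment 4 for Olfr235 (1.10), and experiment 2 for Trpm5 (0.51).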

How the results depend on the processing

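The 62 genes were followed through 19 other ways of processing and 1 chosen after seeing the data (without eugenol experiment 1 and muscone experiment 3 together). Of these genes 58 never changed sign, and 61 were called in no alternative. The limit is the number of arrays, 4 per group, and the dim signal of Olfr1434, which the filter on dim genes leaves out.

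In GFP-positive cells 1 gene was called for the eugenol effect less the muscone effect, and 1 for the muscone effect. Both counts were 0 with no replicate block, where arrays are not paired within experiments, and with dim genes left out (Olfr1434 is not tested there). Both were also 0 without muscone experiments 2 and 3 together, and without eugenol experiment 1 and muscone experiment 3 together. Why they were lost with no block or with fewer experiments was not tested. The first count was also 0 with quantile normalization and with centring on mature neuron genes; the cause was not tested. With 1 experiment left out the counts ran from 0 to 1; the first was 1 only without muscone experiment 1, and the second was 0 without eugenol experiment 3 or muscone experiment 2. The eugenol effect gave 0 calls throughout. In GFP-negative cells the count of 0 became 1 with centring on all probe sets, on odorant receptors or on mature neuron genes and with an intensity trend, and 2 with array weights, and was 0 to 1 with 1 experiment left out.

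Signs turned for 4 eugenol-linked receptors, all within 1 SE of 0 as reported. Olfr913 was 0.016 with centring on odorant receptors and 0.21 with array weights, Olfr178 was 0.022 with centring on odorant receptors, and Olfr73 was 0.011 with centring on all probe sets, 0.036 with quantile normalization and 0.14 with centring on odorant receptors. With 1 experiment left out Olfr913 ran from −0.48 to 0.27, Olfr178 from −0.49 to 0.078, Olfr73 from −0.19 to 0.12 and Olfr74 from −0.24 to 0.87. Of the 58 genes that kept their sign, 22 were more than 1.5 times smaller without 1 of the experiments. Without eugenol experiment 1 and muscone experiment 3 together Lyz2 was −0.48, Cyp1a2 −0.080, Ermn −0.32, Sox2 −0.37, Cyp2j6 −0.48 and Sult1c1 −0.42.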
